A study of Mus musculus with 16 samples.

Results

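The effect of the Lmo2 transgene on DN3 thymocytes that carry an intact p21 locus was read from 5 of the 16 samples of the series, 3 libraries from wild-type (WT) mice and 2 from Lmo2-transgenic (Lmo2Tg) mice. The libraries were chosen by genotype alone, and every gene of the protein-coding count table entered, 22114 in all, of which 11840 had enough counts to be tested. DN3 cells are the CD4-, CD8-, CD44-, CD25+ T-cell progenitors of the thymus, and the study sorted them from mice of 4 genotypes to profile a pre-leukaemic state. WT and Lmo2Tg mice were backcrossed onto C57BL/6J and were 6 weeks old, and Lmo2Tg is the CD2-Lmo2 line, in which CD2 regulatory sequences drive Lmo2 in T cells of 1 transgenic line. The 4 other libraries fitted with them came from p21-/- mice and from Lmo2Tg;p21-/- mice of the same background and age. The methods describe RNA for expression profiling as prepared from pools of sorted cells from 3 to 5 mice, so each library is a pool and not 1 animal, and the labels do not say that the pools were independent. The p-values then measure the spread between these libraries, which may be technical in part.

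LMO2 is a LIM-domain adaptor without DNA-binding activity of its own. It bridges LDB1 to basic helix-loop-helix factors such as TAL1 and LYL1, to their E-protein partners and to GATA factors, in a complex that works in blood stem cells and is switched off as thymocytes commit to the T lineage. At the DN3 stage thymocytes normally stop, rearrange the T-cell receptor beta locus with the RAG recombinase, express the pre-T alpha chain and respond to Notch. When LMO2 is kept on in thymocytes, DN3-stage cells acquire self-renewal and can give rise to T-cell acute lymphoblastic leukaemia.

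Values are given as counts per 1000000 counts of the library (CPM), scaled with edgeR's TMM factors, in the order WT libraries 1, 2 and 3 and then Lmo2Tg libraries L2 and L3, as the columns are headed. A gene was called where edgeR's quasi-likelihood test gave a fold change above 2 and a Benjamini-Hochberg adjusted p under 0.05 over all genes tested. After a log2 fold change, ± gives an approximate standard error, its absolute value divided by the square root of the test's F statistic. The fold change of Lmo2Tg against WT rests on 3 WT and 2 Lmo2Tg libraries, and the spread behind F on all 9 libraries fitted. Total counts were 15597042 to 16257863 in WT and 14003156 and 15176210 in Lmo2Tg. On the first principal component, with 68.4% of the variance, the 4 libraries with the transgene lay on the other side from the 5 without it. WT library 3 stood apart from WT 1 and 2 on the third component. Il2ra, the CD25 chain, was high in all 5 libraries, with 1597, 1617 and 1689 CPM in WT and 1411 and 1580.4 CPM in Lmo2Tg. It is 1 of 12 DN3 identity markers, of which 4 were called lower and 1 higher, as given below. In bulk libraries, fewer cells of a type and less RNA per cell cannot be told apart.

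Between Lmo2Tg and WT, 1420 genes, 12% of those tested, passed both thresholds. Of these, 863 were higher in Lmo2Tg (7.29% of genes tested) and 557 were lower (4.70%). Without the fold threshold, 2327 genes were higher and 2002 were lower, together 36.6% of genes tested. The median log2 fold change was 1.82 over the called-higher and -1.58 over the called-lower genes. The median over all genes tested was -0.01. More than 8-fold changes, a log2 fold change above 3 or under -3, were seen in 177 higher and 51 lower genes.

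Calls were more frequent among genes of low WT level. Of the 433 tested genes with a WT mean under 0.5 CPM, 53.8% were called higher, although such genes passed the count filter only where another group expressed them, so this share describes the filter as well. Of the 2168 genes with a WT mean of 1 to 10 CPM, 13.9% were called higher and 14.2% lower, while of the 2567 genes at 100 CPM and over 1.01% were called higher and 1.32% lower. The called-higher genes together took 14034, 14653 and 11821 CPM in WT and 44231 and 40356 CPM in Lmo2Tg. The called-lower genes took 15817, 15654 and 16221 CPM in WT and 5880.2 and 5564 CPM in Lmo2Tg. These sums follow from how the genes were chosen and carry no test.

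**Figure D1:**
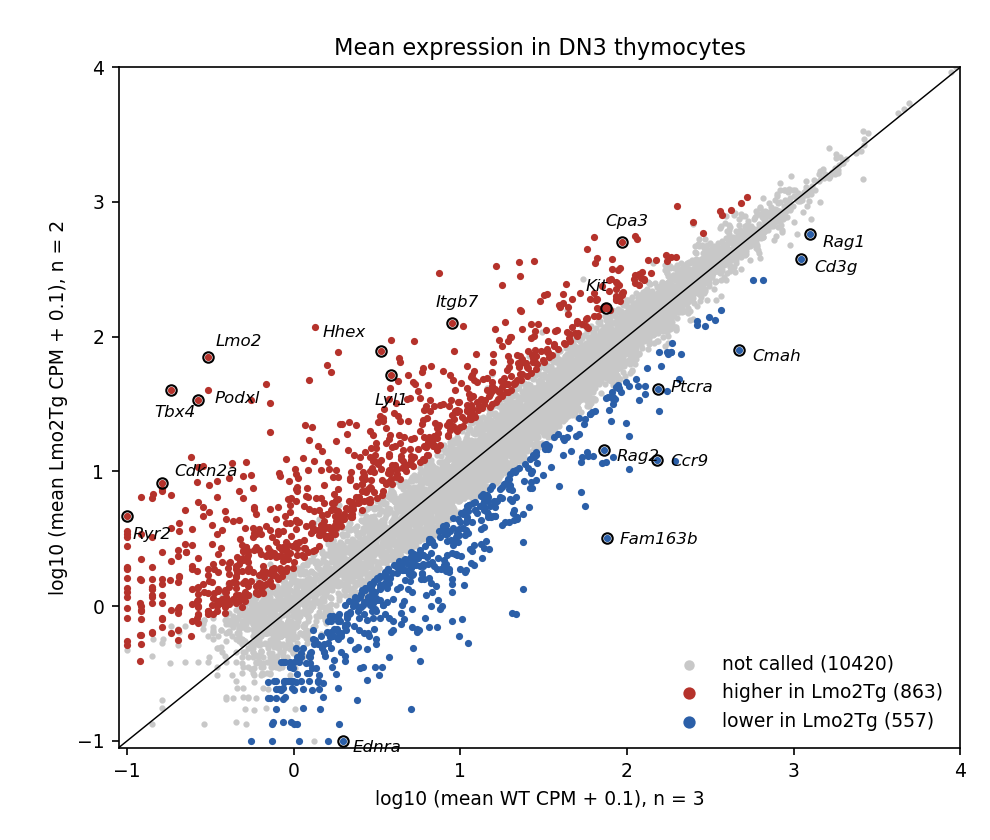
Each point is 1 of the 11840 tested genes, placed by its mean CPM plus 0.1 in the 3 WT libraries (log10, horizontal) and in the 2 Lmo2Tg libraries (vertical); red points were called higher (863), blue points called lower (557), grey points not called, and the line marks equality. Lmo2, Tbx4, Podxl, Hhex and Lyl1 lie far above the line from a low WT level, whereas Rag1, Cd3g, Cmah and Ccr9 lie below it from a high one.

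The targeted gene itself was checked in every library. Lmo2 had 0.306, 0.0636 and 0.242 CPM in WT and 41.4 and 100.4 CPM in Lmo2Tg (log2 fold change 8.38 ± 0.50, adjusted p = 1.1e-06). All WT libraries were near 0 and both Lmo2Tg libraries were far above them, with L3 above L2. The p21-/- libraries had 0.176 and 0.190 CPM and the Lmo2Tg;p21-/- libraries 85.4 and 107 CPM. Gene-level counts cannot tell transcripts of the transgene from those of the endogenous gene. Without L3, the log2 fold change was 7.60. Cdkn1a, which encodes p21, had 36.5, 37.5 and 48.99 CPM in WT and 32.8 and 26.3 CPM in Lmo2Tg (log2 fold change -0.47 ± 0.16, adjusted p = 0.04), so it was lower in both Lmo2Tg libraries than in any WT library by less than the fold threshold.

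Among the LMO2 complex and its partners, 3 of 18 tested members were called higher and 1 lower. These are 16.7% and 5.56%, against 7.29% and 4.70% of all genes, and the median log2 fold change was 0.05. Besides Lmo2, the basic helix-loop-helix factor gene Lyl1 rose from 3.74, 3.94 and 3.57 CPM to 66.6 and 36.2 CPM (log2 fold change 3.77 ± 0.24, adjusted p = 1.7e-06). Its locus overlaps Nfix on the other strand, and the counting's strand setting was not stated, so its reads could not be fully separated. Gata2, a zinc-finger factor of blood stem cells, had 0.123, 0.0636 and 0.0605 CPM in WT and 1.11 and 0.547 CPM in Lmo2Tg (log2 fold change 3.20 ± 0.92, adjusted p = 0.02), a low level at which the call was lost without WT library 3 (adjusted p = 0.062) or without L2 (adjusted p = 0.15). Lmo1, the paralog of Lmo2, moved the other way and was called lower, with 0.858, 0.572 and 0.847 CPM in WT and 0.0740 and 0 CPM in Lmo2Tg. Its ratio of WT to Lmo2Tg counts was 21.4 (exact 95% interval 3.62 to 869), or 10.3 without L3, and the gene was at least 3.71-fold lower without L2. Other parts of the complex did not pass both thresholds. At an adjusted p under 0.05 without the fold threshold, 4 of the 18 tested members were higher and 4 lower, those called included. Ldb1 had 323, 333 and 344 CPM in WT and 336 and 320.0 CPM in Lmo2Tg (log2 fold change -0.02). Tcf3, which encodes E2A, had 317, 336 and 354 CPM in WT and 323 and 341 CPM in Lmo2Tg (log2 fold change -0.02). Gata3, a zinc-finger factor of T cells, had 113, 109 and 111 CPM in WT and 99.6 and 95.9 CPM in Lmo2Tg (log2 fold change -0.18, adjusted p = 0.1). These 3 members were chosen after their values were seen.

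The Id genes encode helix-loop-helix proteins that bind E proteins and block their contact with DNA. Of 6 tested E-protein and Id genes, 2 were called higher and 0 lower, against 7.29% and 4.70% of all genes. At an adjusted p under 0.05 without the fold threshold, 2 were higher and 2 lower. The median log2 fold change of the list was 0.07 and the lowest -0.77. Id1 had 0.613, 0.572 and 0.363 CPM in WT and 2.81 and 4.51 CPM in Lmo2Tg (log2 fold change 2.81 ± 0.58, adjusted p = 0.0034). Id2 had 13.1, 16.6 and 10.2 CPM in WT and 37.7 and 31.05 CPM in Lmo2Tg (log2 fold change 1.37 ± 0.25, adjusted p = 0.0018). Neither gene's groups overlapped.

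The study names Lyl1, Hhex and Kit as genes downstream of LMO2, and all 3 were called higher. That list was drawn up with knowledge of this model, so it is not independent evidence of the direction. Hhex, a homeobox gene of blood progenitors on chromosome 19, rose from 3.62, 3.69 and 2.36 CPM to 86.6 and 69.9 CPM (log2 fold change 4.60 ± 0.17, adjusted p = 5.1e-08), with no overlap and little spread within groups. Kit, the stem cell factor receptor, had 84.8, 75.6 and 62.97 CPM in WT and 199 and 129 CPM in Lmo2Tg (log2 fold change 1.14 ± 0.18, adjusted p = 0.0007). It started from a level that was already readily detected, and without L2 its log2 fold change was 0.80 and it was no longer past the fold threshold.

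The 250 bases before the annotated start of these 3 genes (RefSeq, GRCm38.p6, plus strand, 5′ to 3′) are shown because LMO2 complexes are known to sit at paired E-box and GATA motifs. Capitals mark CANNTG, the E-box, and GATA on either strand (TATC on the strand shown). The windows are chr8:84701207-84701456 for Lyl1, chr19:37434591-37434840 for Hhex and chr5:75574737-75574986 for Kit.
Lyl1 promoter: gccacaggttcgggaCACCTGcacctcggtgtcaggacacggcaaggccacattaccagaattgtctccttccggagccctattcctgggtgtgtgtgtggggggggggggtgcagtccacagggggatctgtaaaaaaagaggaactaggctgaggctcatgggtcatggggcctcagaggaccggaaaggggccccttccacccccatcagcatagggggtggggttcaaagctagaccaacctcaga
Hhex promoter: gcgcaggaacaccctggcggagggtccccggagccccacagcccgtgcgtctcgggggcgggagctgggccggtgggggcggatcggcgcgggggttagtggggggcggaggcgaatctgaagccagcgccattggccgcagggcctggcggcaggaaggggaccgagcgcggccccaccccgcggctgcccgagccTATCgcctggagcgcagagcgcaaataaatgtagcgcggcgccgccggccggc
Kit promoter: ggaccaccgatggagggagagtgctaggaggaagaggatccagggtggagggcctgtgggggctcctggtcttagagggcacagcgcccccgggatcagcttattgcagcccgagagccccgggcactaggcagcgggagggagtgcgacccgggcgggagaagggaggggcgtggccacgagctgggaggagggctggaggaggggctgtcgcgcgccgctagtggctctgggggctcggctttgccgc
The Lyl1 window held 1 E-box and no GATA, the Hhex window 1 GATA and no E-box, and the Kit window neither. Of all promoters in the table, 66.04% held a CANNTG and 54.1% a GATA within the same 250 bases. A comparison of called genes with all genes was void, because promoters were matched for 74.3% of called-higher and 78.3% of called-lower genes, under the 80% required.

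**Figure D2:**
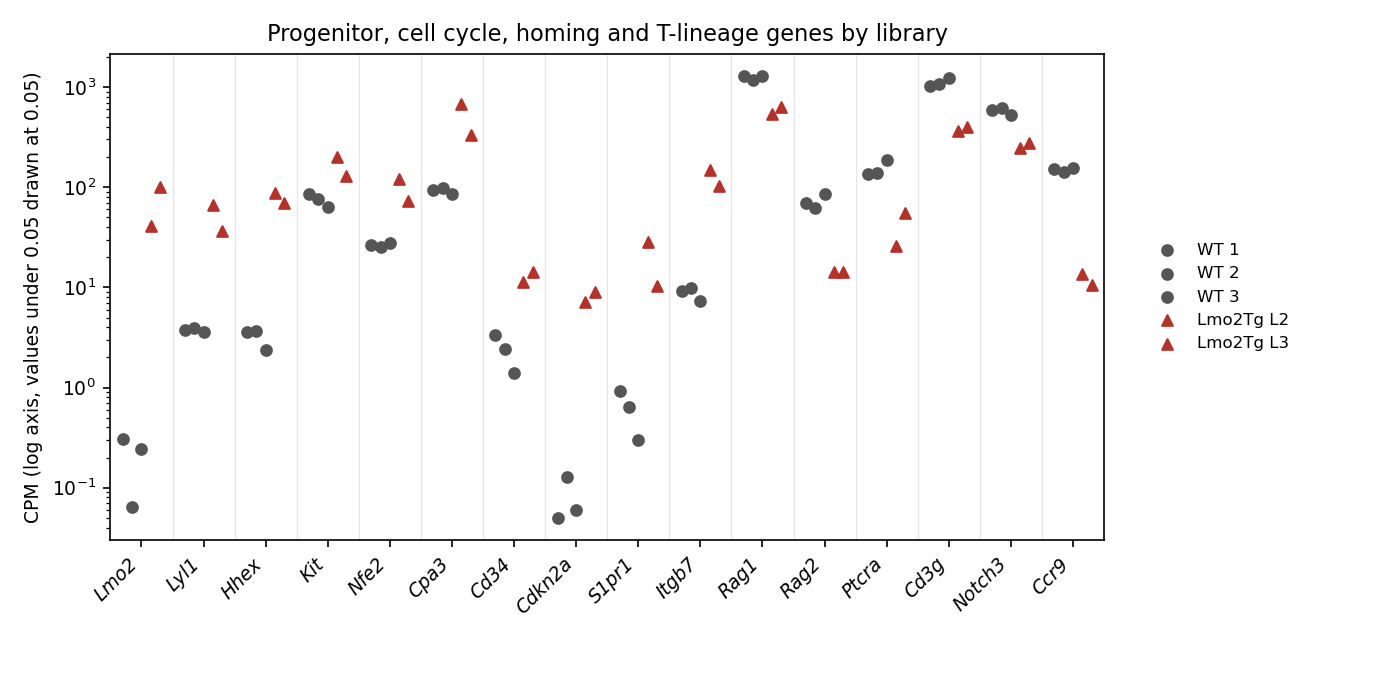
CPM (log axis) of 16 genes in each WT library (grey circles) and each Lmo2Tg library (red triangles); values under 0.05 are drawn at 0.05. For each of the 16 genes the 2 groups do not overlap, with Lmo2, Lyl1, Hhex, Kit, Nfe2, Cpa3, Cd34, Cdkn2a, S1pr1 and Itgb7 higher in Lmo2Tg and Rag1, Rag2, Ptcra, Cd3g, Notch3 and Ccr9 lower.

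Of 28 tested genes of blood stem and progenitor cells, 12 were called higher, against 7.29% of all genes, and 3 were called lower, and their median log2 fold change was 0.55. The list holds Lmo2, the transgene's own gene, and Lyl1, Hhex and Kit, which the study places downstream of LMO2. Their calls could be foreseen, so the share over the list is not independent evidence. The higher members were Lmo2, Hhex, Lyl1, Gata2, Slamf1, Cd34, Spi1, Nfe2, Cd93, Erg, Itga2b and Kit, of which Itga2b lost the call without any 1 of WT library 2, WT library 3, L2 or L3. Without L2 the list gave 10 higher and 4 lower genes, and without WT library 3 10 and 4. Slamf1, which encodes the CD150 receptor used to mark stem cells, rose from 7.17, 5.09 and 6.71 CPM to 53.3 and 34.6 CPM (log2 fold change 2.79 ± 0.19, adjusted p = 2.8e-06). Cd34, a sialomucin of early progenitors, had 3.37, 2.42 and 1.39 CPM in WT and 11.4 and 14.1 CPM in Lmo2Tg (log2 fold change 2.41 ± 0.29, adjusted p = 0.00013). Spi1, which encodes the myeloid and early T factor PU.1, rose from 3.13, 3.56 and 1.996 CPM to 11.02 and 12.9 CPM (log2 fold change 2.05 ± 0.23, adjusted p = 6.6e-05). It is normally shut down before the DN3 stage. Nfe2, a partner of small MAF proteins in erythroid cells and megakaryocytes, had 26.2, 25.1 and 27.5 CPM in WT and 121 and 73.03 CPM in Lmo2Tg (log2 fold change 1.88 ± 0.19, adjusted p = 3.3e-05). For all 4 genes the lowest Lmo2Tg library lay above the highest WT library.

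The list was not raised throughout. Hoxa7, Hoxa9 and Bcl11a were called lower: Bcl11a, a zinc-finger factor of early lymphoid progenitors, fell from 17.9, 18.1 and 16.997 CPM to 7.40 and 7.66 CPM (log2 fold change -1.23 ± 0.13, adjusted p = 4.4e-05), and the homeobox gene Hoxa7 from 22.4, 19.7 and 22.9 CPM to 4.22 and 4.44 CPM (log2 fold change -2.32 ± 0.14, adjusted p = 1.4e-06). 10 members, among them Meis1, Mecom, Flt3, Hlf and Tek, were too low to be tested. Of the 11 tested markers of the earlier DN1 and DN2 stages, 6 were called higher and 1 lower, against 7.29% and 4.70% of all genes. All 6 higher ones are also on the progenitor list. Lmo2, Lyl1, Hhex and Kit are among those 6, so the same limit holds. Il7r, the interleukin-7 receptor chain, had 167, 159.9 and 163 CPM in WT and 115 and 83.8 CPM in Lmo2Tg and was not called.

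A set of genes near 0 in WT was detected in Lmo2Tg. By limits of under 0.5 CPM in every WT library and at least 1 CPM in both Lmo2Tg libraries, 87 called genes were gained, and by the mirror rule 33 were lost. For 8 gained genes no WT library had a count. Tbx4, a T-box gene of limb and lung development on chromosome 11, had 0.123, 0.0636 and 0.0605 CPM in WT and 35.3 and 44.3 CPM in Lmo2Tg (log2 fold change 8.78 ± 0.46, adjusted p = 6.1e-07). Podxl, which encodes the sialomucin podocalyxin of podocytes and blood progenitors, had 0, 0.254 and 0.242 CPM in WT and 39.6 and 27.8 CPM in Lmo2Tg (log2 fold change 7.61 ± 0.47, adjusted p = 1.4e-06). Tenm4, a teneurin cell-surface protein, had 0.368, 0.191 and 0.0605 CPM in WT and 49.6 and 30.3 CPM in Lmo2Tg (log2 fold change 7.54 ± 0.43, adjusted p = 8.8e-07), and its locus overlaps an antisense transcript. Without WT library 1 the log2 fold change of Tenm4 was 8.24. All 3 were above 20 CPM in both Lmo2Tg libraries.

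Among genes with no WT count at all, folds are bounds set against 3 counts over the WT group. Ryr2, the cardiac ryanodine receptor, had 4.96 and 4.24 CPM in Lmo2Tg and was at least 74.2-fold higher. Faxc had 3.48 and 3.49 CPM and was at least 56.4-fold higher, Tmc7 had 2.07 and 4.58 CPM and was at least 54.6-fold higher, and Evc, a ciliary protein of Hedgehog signalling, had 1.41 and 3.97 CPM and was at least 44.3-fold higher. 9330159F19Rik had 1.70 and 4.58 CPM and was at least 51.8-fold higher, and it overlaps the annotated gene Gm49353. L3 was above L2 for the last 3 genes, and without L3 the bounds were 33.5-fold for Tmc7, 22.8-fold for Evc and 27.5-fold for 9330159F19Rik. Without WT library 3, which leaves less depth for the 3 counts, the bounds were 48.9-fold for Ryr2 and 37.2-fold for Faxc. With 1 to 3 WT counts, the ratio of counts was 302 (exact 95% interval 53.5 to 11996) for the cadherin gene Cdh13, 164 (exact 95% interval 44.8 to 1364) for the organic cation transporter gene Slc22a4 and 151 (exact 95% interval 41.2 to 1257) for the potassium channel gene Kcns3. The intervals cover counting error only. Leaving out the WT library that held their counts turned 2 of these ratios into bounds, at least 66.9-fold for Cdh13 without WT library 1 and at least 73.9-fold for Slc22a4 without WT library 2, and the ratio of Kcns3 was 99.6 without WT library 3. Several of these genes are best known outside blood, in heart muscle, neurons or epithelia.

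Lost genes are described against the Lmo2Tg libraries in the same way. Ednra, the endothelin A receptor, had 1.90, 1.65 and 2.06 CPM in WT and no count in Lmo2Tg, at least 17.6-fold lower against 3 counts over the Lmo2Tg group, and at least 9.13-fold without L2 and 8.44-fold without L3, each of which leaves less depth. Krt83, a hair keratin gene, had 5.03, 4.20 and 5.69 CPM in WT and 0.0740 and 0.0684 CPM in Lmo2Tg, a ratio of WT to Lmo2Tg counts of 70.1 (exact 95% interval 19.2 to 582). Genes with a higher WT level fell as well. Fam163b had 64.4, 69.1 and 92.3 CPM in WT and 2.96 and 3.28 CPM in Lmo2Tg (log2 fold change -4.59 ± 0.26, adjusted p = 7.6e-07). Tdrd5, a germline tudor-domain gene, had 24.2, 22.4 and 24.7 CPM in WT and 1.04 and 1.44 CPM in Lmo2Tg (log2 fold change -4.25 ± 0.21, adjusted p = 3.5e-07). Adamtsl2, a secreted matrix protein gene, had 23.5, 21.2 and 19.5 CPM in WT and 0.740 and 0.821 CPM in Lmo2Tg (log2 fold change -4.76 ± 0.33, adjusted p = 2.6e-06). The ephrin receptor gene Epha2 and Fam184a, Lhfpl2, Ica1, Cntnap2, Olfr1507 and 5830411N06Rik completed the 12 lower genes named for their fold change. The rule that named these 12 required that the groups not overlap.

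Several genes that define DN3 cells fell. Of 12 DN3 identity markers, 4 were called lower, against 4.70% of all genes, and 1, Hes1, higher, with a median log2 fold change of -0.67. The lower ones were Rag1, Rag2, Ptcra and Notch3. Without L2 the list gave 3 lower. Rag1, a subunit of the recombinase, had 1276, 1179.5 and 1285 CPM in WT and 538 and 625 CPM in Lmo2Tg (log2 fold change -1.10 ± 0.10, adjusted p = 1.9e-05), and without L2 its log2 fold change was -0.99, just under the fold threshold. Rag2, the other subunit, fell further, from 70.1, 61.95 and 84.9 CPM to 14.3 and 14.4 CPM (log2 fold change -2.33 ± 0.20, adjusted p = 1.1e-05). The 2 genes are neighbours and share an overlapping transcript, B230118H07Rik. These were the only called members among 10 tested genes of V(D)J recombination, against 4.70% of all genes called lower. Dntt, which encodes terminal transferase, had 2642, 2606 and 2552 CPM in WT and 1527 and 1443 CPM in Lmo2Tg (log2 fold change -0.81 ± 0.08, adjusted p = 4.2e-05), short of the fold threshold and named after its values were seen.

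In the pre-TCR and CD3 list, 3 of 26 tested genes were called higher and 2 lower, 11.5% and 7.69% against 7.29% and 4.70% of all genes. Ptcra, the pre-T alpha chain, had 134, 137 and 186 CPM in WT and 26.03 and 55.7 CPM in Lmo2Tg (log2 fold change -1.90 ± 0.29, adjusted p = 0.00062). Without L3 the log2 fold change was -2.55. Cd3g, a chain of the CD3 complex, fell from 1032, 1062 and 1237 CPM to 360.2 and 395 CPM (log2 fold change -1.56 ± 0.10, adjusted p = 1.8e-06). The 3 higher genes of the list encode surface receptors. Cd2 rose from 4.23, 3.82 and 4.42 CPM to 61.9 and 75.97 CPM (log2 fold change 4.05 ± 0.17, adjusted p = 1.3e-07). The transgene in these mice is driven by CD2 sequences, and whether this bears on the Cd2 counts was not tested. Cd5, a negative regulator of T-cell receptor signalling, had 23.8, 24.4 and 24.8 CPM in WT and 62.9 and 65.2 CPM in Lmo2Tg (log2 fold change 1.40 ± 0.08, adjusted p = 8.8e-07), and the related receptor gene Cd6 had 39.9, 44.02 and 48.4 CPM in WT and 141 and 155 CPM in Lmo2Tg (log2 fold change 1.75 ± 0.09, adjusted p = 5.6e-07).

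In the list of Notch receptors and targets, the called shares lay near those of all genes. Of 32 tested members, 4 were called higher (12.5%, against 7.29% of all genes) and 1 lower (3.13%, against 4.70%), and the median log2 fold change was -0.01. Notch1, the receptor that drives T-lineage commitment, had 1558, 1629 and 1326 CPM in WT and 1649 and 1866 CPM in Lmo2Tg and was not called (log2 fold change 0.22, adjusted p = 0.096). Notch3, itself a Notch1 target, fell from 583, 612 and 521 CPM to 248 and 276 CPM (log2 fold change -1.13 ± 0.11, adjusted p = 2.2e-05). Among the target genes, Heyl had 3.74, 3.50 and 4.54 CPM in WT and 12.7 and 9.57 CPM in Lmo2Tg (log2 fold change 1.50 ± 0.19, adjusted p = 0.00016) and Nrarp, a feedback inhibitor, had 1.72, 1.78 and 1.57 CPM in WT and 4.88 and 3.49 CPM in Lmo2Tg (log2 fold change 1.30 ± 0.24, adjusted p = 0.0021). Hey1 had 0.981, 1.21 and 0 CPM in WT and 10.9 and 7.32 CPM in Lmo2Tg (log2 fold change 3.64 ± 0.80, adjusted p = 0.0049). Hes1, a repressor that keeps progenitors undifferentiated, had 83.6, 101 and 74.6 CPM in WT and 107 and 291 CPM in Lmo2Tg (log2 fold change 1.21 ± 0.31, adjusted p = 0.011). Its call rested on L3, and without L3 the log2 fold change was 0.31 (adjusted p = 0.21). The fold of Hey1 without WT library 3 was 3.05 on the log2 scale.

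Most factors of T-lineage commitment did not pass the thresholds. Called shares were 10.5% higher and 5.26% lower, against 7.29% and 4.70% of all genes. Of 19 tested, 2 were called higher and 1 lower, and the counts were 1 higher and 1 lower without L2 and 1 and 2 without L3. Bcl11b, the commitment factor, had 780.0, 755 and 800.0 CPM in WT and 571 and 539 CPM in Lmo2Tg (log2 fold change -0.49 ± 0.09, adjusted p = 0.0014), short of the fold threshold and named after its values were seen. Spib, an ETS factor of DN3 cells, fell from 48.5, 41.5 and 47.9 CPM to 13.5 and 14.6 CPM (log2 fold change -1.71 ± 0.12, adjusted p = 3.4e-06). Runx3, which works in CD8 T cells, had 76.9, 72.3 and 72.2 CPM in WT and 189 and 147 CPM in Lmo2Tg (log2 fold change 1.19 ± 0.11, adjusted p = 1.7e-05), and its fold was not past the threshold without L2. None of the 5 Ikaros family genes was called by edgeR, though 2 were higher without WT library 1. Ikzf2, which encodes Helios, came closest with 189.6, 186 and 134 CPM in WT and 375 and 300.2 CPM in Lmo2Tg (log2 fold change 0.99 ± 0.15, adjusted p = 0.00045). Of 14 tested regulators of gamma-delta and innate-like T cells, 2 (Zbtb16 and Sox13) were called higher and 2 (Maf and Blk) lower, against 7.29% and 4.70% of all genes. Zbtb16, the factor of natural killer T cells, was under 1.5 CPM in every library (log2 fold change 1.21, adjusted p = 0.046) and lost the call without any 1 of the 5 libraries, at adjusted p-values of 0.053 to 0.14. Sox13, a marker of gamma-delta progenitors, had 84.6, 80.4 and 92.2 CPM in WT and 205 and 167 CPM in Lmo2Tg (log2 fold change 1.12 ± 0.15, adjusted p = 0.00022), and Maf, a factor of interleukin-17-producing gamma-delta cells, had 5.88, 8.91 and 6.83 CPM in WT and 3.11 and 1.23 CPM in Lmo2Tg (log2 fold change -1.74 ± 0.35, adjusted p = 0.0031). Without L2 the list gave 0 higher and 4 lower, and the log2 fold change of Maf was -2.54 and of Sox13 0.96.

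Of 11 tested genes of class II antigen presentation, 4 were called lower and 0 higher, against 4.70% and 7.29% of all genes. H2-DMa, a chain of the peptide-exchange factor, fell from 27.8, 24.998 and 28.1 CPM to 10.4 and 9.64 CPM (log2 fold change -1.43 ± 0.12, adjusted p = 1.2e-05), and its locus overlaps Brd2 on the other strand. H2-Ab1 had 7.48, 7.89 and 9.25 CPM in WT and 2.88 and 3.01 CPM in Lmo2Tg (log2 fold change -1.47 ± 0.20, adjusted p = 0.00029). H2-DMb1 and H2-DMb2, which share sequence and so may share reads, had log2 fold changes of -1.93 and -1.36. Irf8, a factor of dendritic cells and early progenitors, had 10.8, 10.7 and 11.1 CPM in WT and 4.73 and 3.83 CPM in Lmo2Tg (log2 fold change -1.35 ± 0.16, adjusted p = 0.00014). Of 21 class I and peptide-loading genes, 3 were called higher and 0 lower, against 7.29% and 4.70% of all genes. All 3 higher genes are non-classical. H2-Q2 had 15.6, 16.3 and 18.7 CPM in WT and 82.3 and 106 CPM in Lmo2Tg (log2 fold change 2.48 ± 0.20, adjusted p = 8.2e-06). H2-T3 and H2-Q1 were under 3 CPM in every library of both groups and lost the call without L3. H2-Q1 and H2-Q2 also share sequence.

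Receptors that guide thymocytes within and out of the organ changed in both directions. Of 18 tested, 2 were called higher and 3 lower, 11.1% and 16.7% against 7.29% and 4.70% of all genes. Ccr9, the receptor for the thymic chemokine CCL25, fell from 154, 143 and 155 CPM to 13.7 and 10.6 CPM (log2 fold change -3.63 ± 0.17, adjusted p = 3.3e-07), with no overlap between the groups. Itgae, the integrin chain of CD103, had 14.2, 15.3 and 10.4 CPM in WT and 2.59 and 1.78 CPM in Lmo2Tg (log2 fold change -2.61 ± 0.28, adjusted p = 5.9e-05). Its partner Itgb7 rose instead, from 9.13, 9.86 and 7.32 CPM to 149.6 and 103 CPM (log2 fold change 3.85 ± 0.22, adjusted p = 8.8e-07), and the 2 proteins pair in the same integrin. S1pr1, the receptor that lets mature T cells leave the thymus, had 0.919, 0.636 and 0.302 CPM in WT and 28.3 and 10.4 CPM in Lmo2Tg (log2 fold change 4.95 ± 0.57, adjusted p = 8.4e-05), and without L2 its log2 fold change was 4.06. Ccr7 had 3.003, 2.86 and 3.69 CPM in WT and 1.78 and 1.37 CPM in Lmo2Tg (log2 fold change -1.02 ± 0.27, adjusted p = 0.015), a call that was lost without WT library 3 (-0.90) or without L3 (-0.84). Without L2 the list gave 2 called higher and 5 lower.

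Of 16 tested surface and homing genes of later T-cell stages, 8 were called higher, against 7.29% of all genes, and 2 lower, with a median log2 fold change of 1.12, and 1 was called lower without WT library 3 or without L3. Klf2, the factor that maintains S1pr1 in resting T cells, had 4.17, 10.7 and 2.72 CPM in WT and 35.1 and 81.99 CPM in Lmo2Tg (log2 fold change 3.33 ± 0.45, adjusted p = 0.00025), with a log2 fold change of 4.09 without WT library 2 and 2.59 without L3. Cd8a rose from 8.46, 7.63 and 9.80 CPM to 34.5 and 32.9 CPM (log2 fold change 1.96 ± 0.29, adjusted p = 0.00044). Cd4, the other co-receptor, had 2.76, 2.86 and 3.02 CPM in WT and 1.78 and 4.99 CPM in Lmo2Tg and was not called, and was named after its values were seen. Cd69, an early activation marker, had 20.6, 27.9 and 6.77 CPM in WT and 105 and 153 CPM in Lmo2Tg (log2 fold change 2.82 ± 0.53, adjusted p = 0.0022). Il4ra, the interleukin-4 receptor, had 13.6, 11.6 and 10.5 CPM in WT and 55.9 and 39.9 CPM in Lmo2Tg (log2 fold change 2.01 ± 0.23, adjusted p = 7.9e-05). Among markers of the DN4 and double-positive stages, 4 of 10 were called higher and 0 lower, against 7.29% and 4.70% of all genes. The higher ones were Cd2, Cd69, Cd8a and Dusp6.

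In the interleukin-7 and common gamma-chain list, 4 of 20 tested members were called higher, against 7.29% of all genes, and 0 lower, namely Il4ra, Il9r, Socs2 and Pim1. Il9r, the interleukin-9 receptor, had 13.8, 11.7 and 12.04 CPM in WT and 59.3 and 32.5 CPM in Lmo2Tg (log2 fold change 1.87 ± 0.22, adjusted p = 0.0001). Pim1, a survival kinase downstream of STAT5, had 89.7, 84.2 and 84.4 CPM in WT and 245 and 262 CPM in Lmo2Tg (log2 fold change 1.56 ± 0.15, adjusted p = 2.7e-05), and Socs2, a feedback inhibitor, had 10.3, 9.99 and 15.001 CPM in WT and 45.3 and 26.7 CPM in Lmo2Tg (log2 fold change 1.61 ± 0.27, adjusted p = 0.0011). Of 9 tested Ly6 family genes, 2 were called higher and 1 lower, against 7.29% and 4.70% of all genes. Ly6d, a surface marker of lymphoid progenitors, was the called-lower member, with 320.3, 366 and 417 CPM in WT and 206 and 111 CPM in Lmo2Tg (log2 fold change -1.21 ± 0.25, adjusted p = 0.0033). Without L3 its log2 fold change was -0.84. The 2 higher members of 9 tested, Ly6c2 and Ly6g5b, were under 3 CPM in all 5 libraries, and Ly6g5b lost the call without any 1 of WT library 1, WT library 2, L2 or L3. In the insulin-like growth factor axis, the adaptor gene Irs2 had 8.40, 10.5 and 4.29 CPM in WT and 65.5 and 44.7 CPM in Lmo2Tg (log2 fold change 2.83 ± 0.35, adjusted p = 0.00015), and Igf2bp3, a fetal RNA-binding protein gene, had 24.9, 19.97 and 21.9 CPM in WT and 56.1 and 66.3 CPM in Lmo2Tg (log2 fold change 1.46 ± 0.20, adjusted p = 0.00034). Irs1 was called lower at levels up to 1.21 CPM, a call lost without L3 (adjusted p = 0.073).

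Inhibitors of cyclin-dependent kinases other than p21 were among the higher genes. Of 8 tested, Cdkn1a included, 4 were called higher, against 7.29% of all genes, and 0 lower. Cdkn2a, which encodes p16INK4a and p19ARF, had 0, 0.127 and 0.0605 CPM in WT and 7.10 and 9.09 CPM in Lmo2Tg, a ratio of counts of 132 (exact 95% interval 44.5 to 643), or 267 without WT library 2 and 87.5 without WT library 1. Its neighbour on chromosome 4, Cdkn2b, which encodes p15INK4b, had 0.0613, 0 and 0.0605 CPM in WT and 1.48 and 1.50 CPM in Lmo2Tg, a ratio of 36.2 (exact 95% interval 9.43 to 309). Both were at or under 0.127 CPM in WT. Cdkn2d, which encodes p19INK4d, started from a higher level, with 25.5, 26.3 and 30.1 CPM in WT and 70.9 and 67.2 CPM in Lmo2Tg (log2 fold change 1.34 ± 0.10, adjusted p = 5.1e-06). Cdkn1c, which encodes p57, had 0.368, 0.509 and 0.423 CPM in WT and 2.14 and 2.46 CPM in Lmo2Tg (log2 fold change 2.39 ± 0.41, adjusted p = 0.0012). Together the list summed to 205 to 215 CPM in the WT libraries and 321 and 370.5 CPM in Lmo2Tg. That sum also holds the members not called, Cdkn1a among them, so it does not describe the 4 called genes alone.

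Few genes of the cell cycle machinery passed the same thresholds, in lists that also hold genes restraining the cycle, such as Rb1 and E2f7. Of 21 G1 cyclin, CDK, Rb and E2F genes, 2 were called lower and 0 higher, and no gene of this list was called without L3. Ccnd2, cyclin D2, had 305, 299.7 and 324 CPM in WT and 156 and 124 CPM in Lmo2Tg (log2 fold change -1.14 ± 0.16, adjusted p = 0.0003), with a log2 fold change of -0.99 without L3. E2f7, a repressor E2F, had 8.76, 9.29 and 8.89 CPM in WT and 4.51 and 4.31 CPM in Lmo2Tg (log2 fold change -1.03 ± 0.17, adjusted p = 0.001), and -0.99 on the log2 scale without L3, and it also missed the fold threshold without WT library 2. None of the 45 tested DNA replication genes was called by edgeR. At an adjusted p under 0.05 without the fold threshold, 8 of them were lower and 0 higher. By that rule, 2002 of the 11840 genes tested were lower and 2327 higher. The median log2 fold change of the replication genes was -0.21. Mcm6, a subunit of the replicative helicase, had 909, 893 and 936 CPM in WT and 718 and 824 CPM in Lmo2Tg. Of 31 mitotic genes, 1 was called higher and 0 lower, and that gene was Cdc25b, a phosphatase that activates CDK1, with 63.4, 65.6 and 61.03 CPM in WT and 151 and 135 CPM in Lmo2Tg (log2 fold change 1.17 ± 0.09, adjusted p = 6.5e-06).

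Of 29 tested genes of the p53 pathway, 8 were called higher, against 7.29% of all genes, and 0 lower, with a median log2 fold change of 0.36. They were Perp, Pmaip1, Plk2, Zmat3, Plk3, Gadd45a, Bbc3 and Fas, whereas Cdkn1a was not among them, and Plk2 lost the call without WT library 1 (adjusted p = 0.058) or L3 (adjusted p = 0.064). Zmat3, an RNA-binding p53 target, rose from 4.72, 6.997 and 7.74 CPM to 28.6 and 39.2 CPM (log2 fold change 2.39 ± 0.22, adjusted p = 1.7e-05). Pmaip1, which encodes the killer protein NOXA, had 2.57, 4.52 and 2.84 CPM in WT and 15.4 and 31.9 CPM in Lmo2Tg (log2 fold change 2.84 ± 0.31, adjusted p = 6.7e-05), and 2.21 on the log2 scale without L3. Bbc3, which encodes PUMA, had 3.55, 4.45 and 4.90 CPM in WT and 13.98 and 10.7 CPM in Lmo2Tg (log2 fold change 1.52 ± 0.18, adjusted p = 0.00012). NOXA and PUMA were the higher members of the BCL2 family. There 2 of 12 tested genes were called higher and 1 lower, 16.7% and 8.33% against 7.29% and 4.70% of all genes. The lower one, Bcl2l2, encodes the survival protein BCL-W and had 20.2, 18.96 and 19.1 CPM in WT and 8.88 and 8.34 CPM in Lmo2Tg (log2 fold change -1.17 ± 0.13, adjusted p = 6.2e-05).

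Regulators of lymphocyte quiescence gave 4 called higher, against 7.29% of all genes, and 0 lower of 15 tested. Besides Klf2, Btg1, an antiproliferative gene, rose from 114, 136 and 86.6 CPM to 543 and 567 CPM (log2 fold change 2.31 ± 0.17, adjusted p = 4.2e-06), and Tob1, of the same family, had 12.1, 16.4 and 7.44 CPM in WT and 53.1 and 57.1 CPM in Lmo2Tg (log2 fold change 2.20 ± 0.34, adjusted p = 0.00059). Klf6 had 69.01, 95.8 and 32.7 CPM in WT and 257 and 504 CPM in Lmo2Tg (log2 fold change 2.53 ± 0.39, adjusted p = 0.00063). No gene of the Myc, Max and Mxd network was called by edgeR among 11 tested, with 3 higher and 2 lower at an adjusted p under 0.05 alone. By that rule, 2327 of the 11840 genes tested were higher and 2002 lower. Myc itself had 308, 294 and 426 CPM in WT and 203 and 169 CPM in Lmo2Tg (log2 fold change -0.88 ± 0.18, adjusted p = 0.0034), lower in both Lmo2Tg libraries than in any WT library but short of the fold threshold.

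Genes induced by activation signals were called higher in 4 families. Of 9 tested Nr4a and Egr factors 4 were called higher and 0 lower, of 12 AP-1 genes 4 and 0, of 13 Dusp and Sprouty feedback inhibitors 6 and 0, and of 17 NF-kB subunits and feedback genes 6 and 2, against 7.29% of all genes higher and 4.70% lower. Their medians were 1.70, 1.30, 0.86 and 0.48 on the log2 scale. Nr4a1, an orphan nuclear receptor induced by antigen-receptor signals, rose from 27.03, 34.5 and 21.05 CPM to 392 and 339 CPM (log2 fold change 3.73 ± 0.37, adjusted p = 2.9e-05). Nr4a3, its paralog, had 6.13, 6.81 and 2.54 CPM in WT and 145 and 39.7 CPM in Lmo2Tg (log2 fold change 4.16 ± 0.87, adjusted p = 0.0039), and the 2 Lmo2Tg libraries differed widely, with log2 fold changes of 2.95 without L2 and 4.81 without L3. Egr1, a zinc-finger factor downstream of ERK, had 31.7, 62.8 and 23.1 CPM in WT and 192 and 154 CPM in Lmo2Tg (log2 fold change 2.14 ± 0.36, adjusted p = 0.0011).

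Feedback inhibitors were among them. Dusp5, a nuclear ERK phosphatase, rose from 64.3, 67.1 and 41.7 CPM to 499.9 and 393 CPM (log2 fold change 2.95 ± 0.38, adjusted p = 0.00018), and Dusp2 from 61.6, 77.2 and 54.1 CPM to 358 and 344 CPM (log2 fold change 2.45 ± 0.21, adjusted p = 1.4e-05). Tnfaip3, which encodes the NF-kB inhibitor A20, had 234, 264 and 102 CPM in WT and 845 and 1031 CPM in Lmo2Tg (log2 fold change 2.23 ± 0.45, adjusted p = 0.003). Nfkbia, which encodes I kappa B alpha, had 30.9, 33.9 and 30.7 CPM in WT and 189 and 216 CPM in Lmo2Tg (log2 fold change 2.67 ± 0.45, adjusted p = 0.0011). Traf1 went the other way within the NF-kB list, from 15.4, 14.4 and 14.4 CPM to 3.11 and 1.98 CPM (log2 fold change -2.54 ± 0.23, adjusted p = 1.5e-05). In the AP-1 family Maff had 6.31, 9.22 and 4.17 CPM in WT and 64.3 and 56.96 CPM in Lmo2Tg (log2 fold change 3.21 ± 0.48, adjusted p = 0.00054), and Fosl2 had 5.64, 6.42 and 2.66 CPM in WT and 50.7 and 19.6 CPM in Lmo2Tg (log2 fold change 2.84 ± 0.68, adjusted p = 0.0079), a call lost without L2 (2.00, adjusted p = 0.086). Without L2 the AP-1 list gave 2 called higher.

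Members of these families also differed between libraries of the same genotype. Fos, an immediate early gene, had 107, 321 and 3.69 CPM in WT and 156 and 545 CPM in Lmo2Tg. Junb, its partner in AP-1, had 261, 458 and 29.03 CPM in WT and 407 and 955 CPM in Lmo2Tg. Neither was called (adjusted p = 0.34 and 0.18), and both were named after their values were seen. WT library 3 was low in both, and L3 was higher than L2 in both. The AP-1 list as a whole summed to 852, 1638 and 266 CPM in WT and 1539.7 and 2979 CPM in Lmo2Tg. The part of this between-library spread in the calls was not tested. Without WT library 3, 4 Nr4a and Egr, 5 AP-1, 7 Dusp and Sprouty and 6 NF-kB genes were called higher, and without WT 3 the whole comparison gave 781 higher and 517 lower genes.

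**Figure D3:**
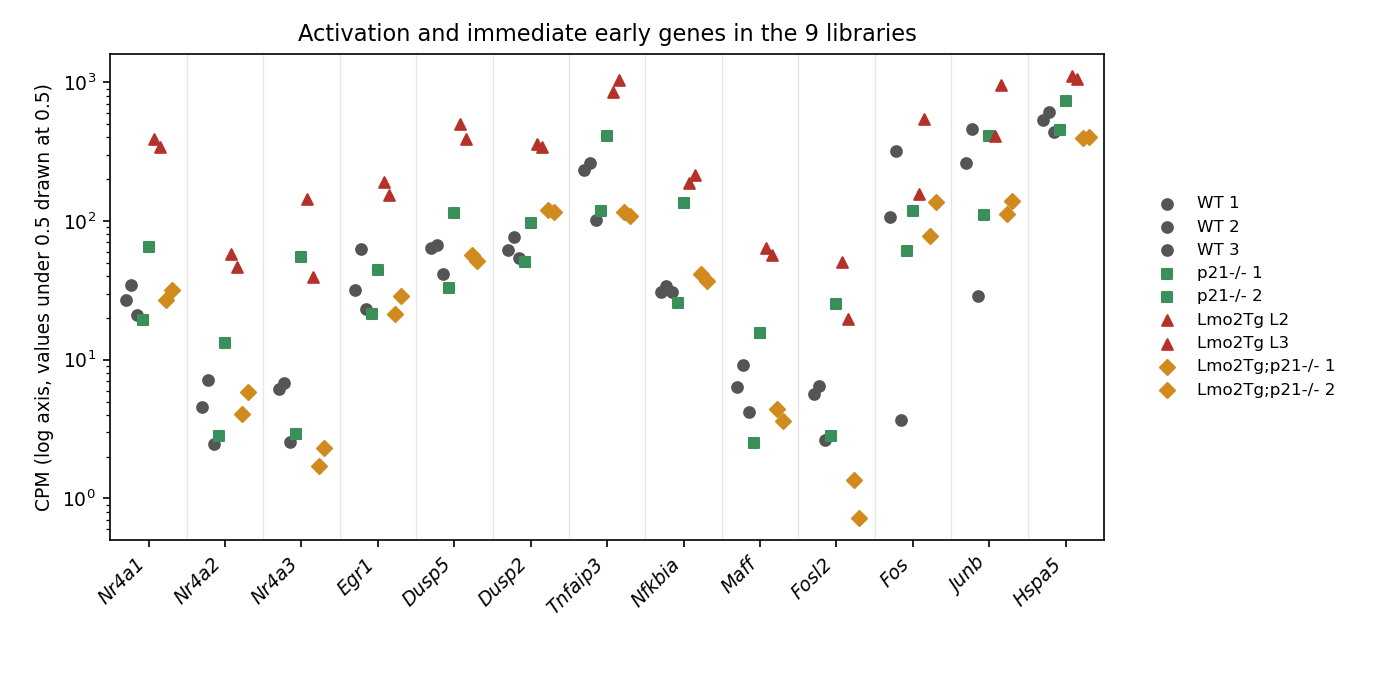
CPM (log axis; values under 0.5 drawn at 0.5) of 13 activation and immediate early genes in the 9 libraries: WT (grey circles), p21-/- (green squares), Lmo2Tg (red triangles) and Lmo2Tg;p21-/- (orange diamonds). The 2 Lmo2Tg libraries are the highest for Nr4a1, Nr4a2, Egr1, Dusp5, Dusp2, Tnfaip3, Nfkbia, Maff and Hspa5, p21-/- library 2 lies above p21-/- library 1 for all 13 genes, and WT library 3 is the lowest of the 3 WT libraries for all 13.

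Other abundant transcripts moved by more than 2-fold. Dpp4, which encodes the surface peptidase CD26, rose from 388, 363 and 329 CPM to 907 and 804 CPM (log2 fold change 1.25 ± 0.09, adjusted p = 3.6e-06). Flna, filamin A, had 259.9, 272 and 213 CPM in WT and 714 and 709 CPM in Lmo2Tg (log2 fold change 1.52 ± 0.11, adjusted p = 2.8e-06). Sik1, a salt-inducible kinase, had 76.8, 93.8 and 18.99 CPM in WT and 580.4 and 519 CPM in Lmo2Tg (log2 fold change 3.12 ± 0.74, adjusted p = 0.0076). Hspa5, which encodes the endoplasmic reticulum chaperone BiP, had 534, 612 and 435 CPM in WT and 1107 and 1059 CPM in Lmo2Tg (log2 fold change 1.04 ± 0.18, adjusted p = 0.0011). Its fold, and those of Zfp36l2 and Macf1, fell under the threshold without WT library 3, at 0.92, 0.94 and 0.91 on the log2 scale, and that of Adgrg1 without L2, at 0.88. On the lower side, Cmah, the enzyme that makes N-glycolylneuraminic acid, fell from 536, 516 and 363 CPM to 90.6 and 68.2 CPM (log2 fold change -2.57 ± 0.18, adjusted p = 3.4e-06). Ppt1, a lysosomal thioesterase, had 668, 656 and 652 CPM in WT and 276 and 249.5 CPM in Lmo2Tg (log2 fold change -1.33 ± 0.08, adjusted p = 1.4e-06), and overlaps Cap1 on the other strand. Hdac4, a class II histone deacetylase, had 338, 343 and 334 CPM in WT and 139.6 and 125 CPM in Lmo2Tg (log2 fold change -1.35 ± 0.09, adjusted p = 1.9e-06), and Myl10, a myosin light chain, had 259, 291 and 335 CPM in WT and 131 and 107 CPM in Lmo2Tg (log2 fold change -1.31 ± 0.16, adjusted p = 0.00016).

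Housekeeping families held few called genes, against 7.29% higher and 4.70% lower of all genes tested. Cytosolic ribosomal protein genes gave 2 higher and 0 lower of 85, the higher ones being Rpl3l, a muscle isoform, and Rpl24, which was under 5 CPM, shares sequence with other annotated genes and lost the call without any 1 of WT library 1, 2 or 3 or L3. Proteasome subunits gave 1 higher and 0 lower of 42, namely the activator gene Psme4, at 1.10 on the log2 scale and 0.94 without L3. Mitochondrial ribosomal proteins gave 0 higher and 0 lower of 75, nuclear-encoded oxidative phosphorylation 0 higher and 0 lower of 75, translation initiation factors 0 higher and 0 lower of 54, DNA repair 0 higher and 0 lower of 31, Polycomb and DNA methylation 0 higher and 0 lower of 23 and nutrient transporters 0 higher and 0 lower of 13 by edgeR. Without the fold threshold, the counts at an adjusted p under 0.05 in these 6 lists were 1 higher and 8 lower, 2 and 6, 5 and 3, 1 and 7, 5 and 2, and 4 and 0, in that order. By that rule, 2327 of the 11840 genes tested were higher and 2002 lower. Cholesterol synthesis and uptake had 0 higher and 2 lower of 22 called and a median log2 fold change of -0.45. Without the fold threshold, 16 of its 22 genes were lower and 0 higher, beside the 2002 lower of 11840 genes tested. Msmo1, a sterol oxidase, had 39.4, 38.2 and 52.99 CPM in WT and 20.3 and 15.5 CPM in Lmo2Tg (log2 fold change -1.29 ± 0.17, adjusted p = 0.00023). Interferon-stimulated genes gave 1 higher and 2 lower of 29. Iigp1 and Ifi44 had log2 fold changes of -2.53 and -2.05, and Irf1 1.16, or 0.99 without L2. The glycolytic call was Aldoc (log2 fold change -2.09 ± 0.31, adjusted p = 0.00044), a brain aldolase. Tubulin genes gave 2 higher and 1 lower of 14, with log2 fold changes of 2.05 for Tubb2b, 1.34 for Tuba1a and -1.43 for Tubg2, and Tuba1a shares most of its sequence with other genes. Tubg2 lost its call without any 1 of WT library 3 (adjusted p = 0.059), L2 (adjusted p = 0.11) or L3 (adjusted p = 0.056), which left no lower tubulin gene. Heat-shock proteins and chaperones gave 2 higher and 0 lower of 16, Hspa5 and Dnajb1, and replication-dependent histone genes gave 1 higher and 0 lower of 25, Hist3h2a, whose log2 fold change of 1.30 was 0.81 without L3 (adjusted p = 0.11). The histone list then gave 0 called genes, and 3 higher without WT library 2 (of 23 tested) or without L2 (of 33 tested).

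**Figure D4:**
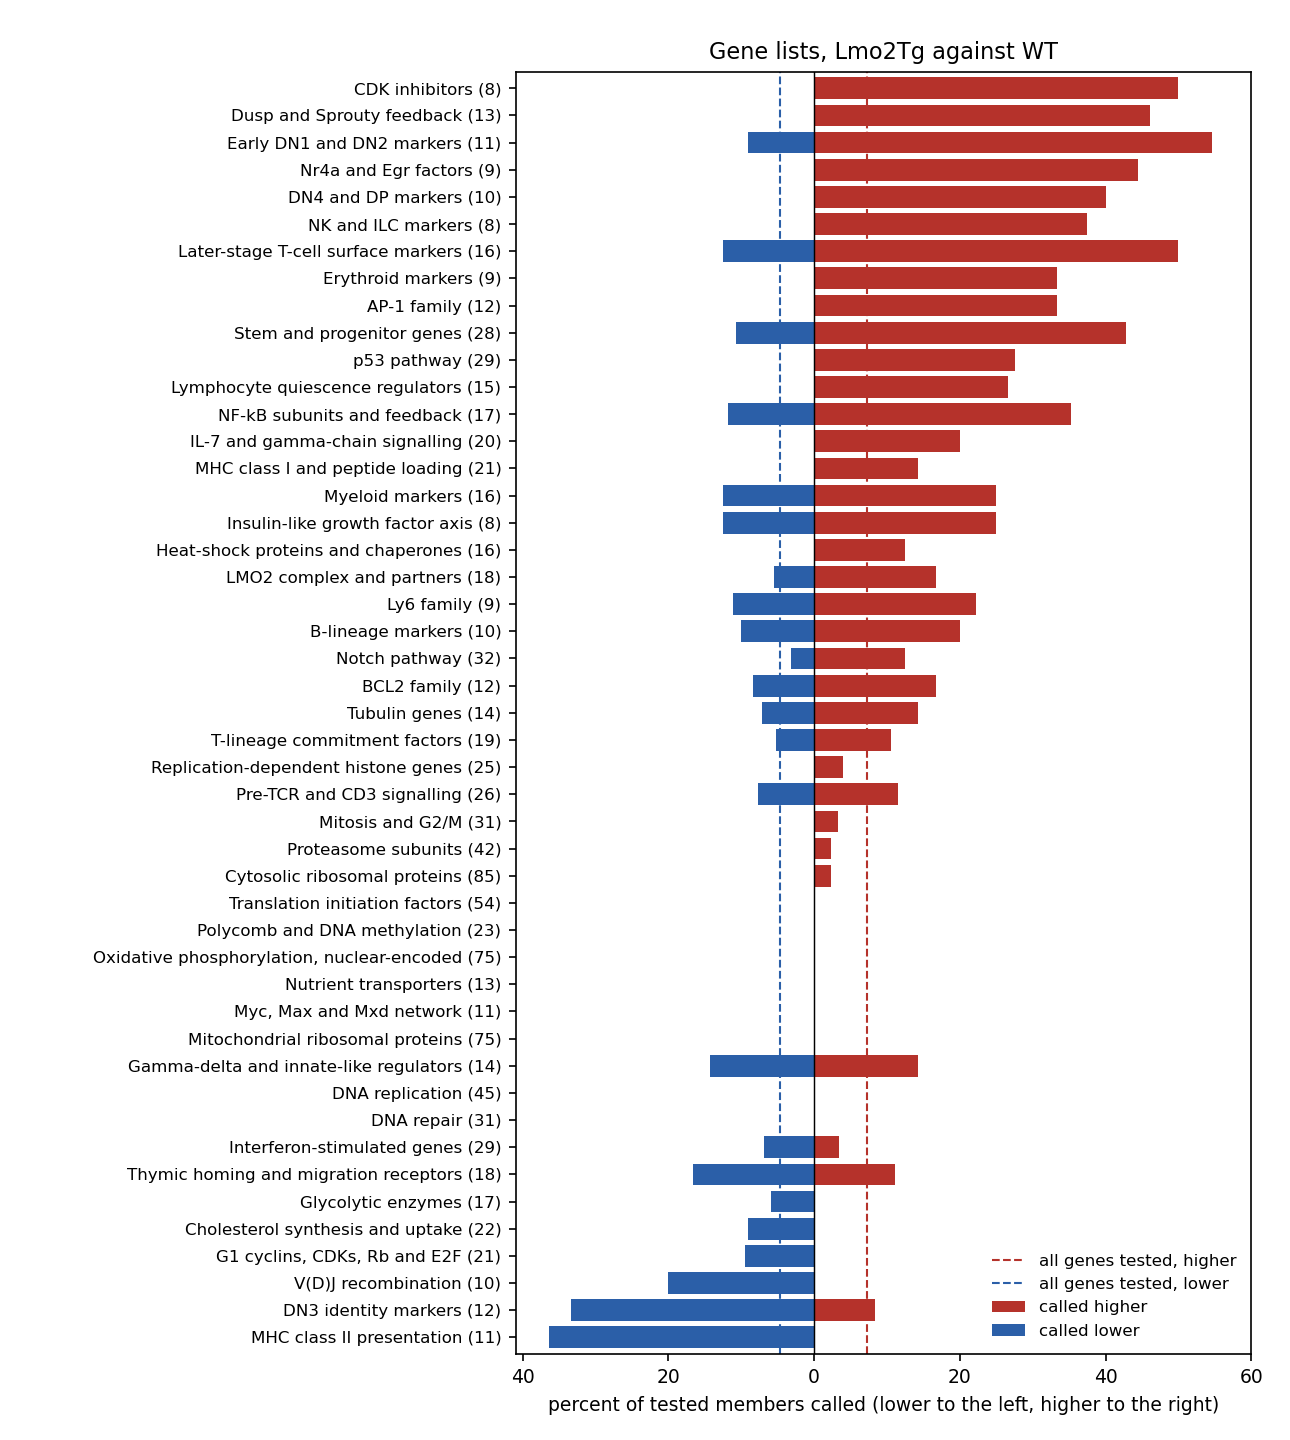
Percent of tested members called higher (red, to the right) or lower (blue, to the left) in Lmo2Tg against WT, for the lists with at least 8 tested members (number in brackets); dashed lines mark the share of all genes tested, 7.29% higher and 4.70% lower. Early DN1 and DN2 markers, CDK inhibitors, later-stage surface markers, Dusp and Sprouty feedback and Nr4a and Egr factors extend furthest to the right, and MHC class II presentation and DN3 identity markers furthest to the left. The early DN1 and DN2 list includes Lmo2 itself and the study-named genes Lyl1, Hhex and Kit.

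Markers of other cell types were examined because a sorted pool can hold other cells. The counts in this and the next paragraph stand beside 7.29% of all genes called higher and 4.70% called lower. Myeloid markers gave 4 higher and 2 lower of 16 called (Mpo, Tyrobp, Itgam and Cebpb higher, Ccr2 and Lyz2 lower) and summed to 27.1 to 41.7 CPM in the WT libraries and 43.3 and 47.7 CPM in Lmo2Tg. Cebpb lost its call without any 1 of WT library 1, L2 or L3 (adjusted p = 0.051, 0.066 and 0.059) and Ccr2 without L3 (adjusted p = 0.064), which left 1 lower gene, while without WT library 3 the list gave 3 lower. Mpo, the myeloperoxidase of granulocyte progenitors, had 0.245, 0.382 and 0 CPM in WT and 7.47 and 8.14 CPM in Lmo2Tg (log2 fold change 5.19 ± 0.62, adjusted p = 0.00012, or 5.91 on the log2 scale without WT library 2). Lyz2, the lysozyme of macrophages, fell from 16.1, 16.6 and 14.6 CPM to 5.77 and 6.15 CPM (log2 fold change -1.40 ± 0.17, adjusted p = 0.00011). Csf1r and Elane were under 1 CPM in all 5 libraries. Megakaryocyte and mast cell markers summed to 90.1 to 103 CPM in the WT libraries and 690.0 and 346 CPM in Lmo2Tg, almost all of it from Cpa3, a carboxypeptidase of mast cells and early progenitors, which had 94.2, 98.8 and 86.1 CPM in WT and 672 and 333 CPM in Lmo2Tg (log2 fold change 2.43 ± 0.25, adjusted p = 3.6e-05, or 1.84 on the log2 scale without L2). Gzmb, granzyme B, had 0.0613, 0.127 and 0 CPM in WT and 6.88 and 7.25 CPM in Lmo2Tg, a ratio of counts of 114 (exact 95% interval 38.6 to 559.8), or 232 without WT library 2 and 75.5 without WT library 3. The defining mast cell genes Cma1, Tpsb2, Tpsab1 and Fcer1a and the platelet gene Ppbp had no count in any of the 5 libraries. 4 of 5 tested members were called higher, namely Gzmb, Cpa3, Hdc and Itga2b, against 7.29% of all genes. The count was 2 without any 1 of WT library 2, WT library 3 or L2, where Hdc, the histidine decarboxylase gene, and Itga2b lost the call, and without L2 the log2 fold change of Hdc was 0.90 (adjusted p = 0.42) in place of 1.82.

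Erythroid markers gave 3 higher and 0 lower of 9, and apart from Nfe2 its members were under 7 CPM, with the globin gene Hbb-bt at 0.613, 1.02 and 0.121 CPM in WT and 3.40 and 4.31 CPM in Lmo2Tg (log2 fold change 2.72 ± 0.65, adjusted p = 0.0079, or 3.37 on the log2 scale without WT library 2). The third higher member besides Nfe2 and Hbb-bt, the carbonic anhydrase gene Car2, lost its call without any 1 of the 5 libraries (adjusted p from 0.067 to 0.15), which left 2 higher each time. Thymic stroma markers gave 1 higher and 2 lower of 6, and the lower ones were Cdh5 and Epcam. Pdgfrb rose from 75.7, 70.1 and 66.9 CPM to 261 and 216 CPM (log2 fold change 1.75 ± 0.16, adjusted p = 1.9e-05) and Epcam fell from 48.05, 50.1 and 56.98 CPM to 19.5 and 17.98 CPM (log2 fold change -1.46 ± 0.11, adjusted p = 5.2e-06), while Krt5, Krt14, Foxn1, Pdgfra, Col1a2 and Col3a1 had no count in any of the 5 libraries. NK and innate lymphoid markers gave 3 higher and 0 lower of 8, namely Gzmb, Tyrobp and Zbtb16, and Ncr1 had no count. Without any 1 of the 5 libraries the list gave 2 higher, because Zbtb16 lost its call each time, and it gave 1 lower without WT library 1 and 2 lower without L2. B-lineage markers gave 2 higher and 1 lower of 10, namely Pou2af1, Cd72 and Blk, with Cd72 at 0.80 on the log2 scale without WT library 3, and summed to 75.6 to 78.03 CPM in the WT libraries and 66.2 and 61.6 CPM in Lmo2Tg, with Pou2af1, a B-cell coactivator, at 4.96, 6.42 and 5.93 CPM in WT and 25.9 and 19.01 CPM in Lmo2Tg (log2 fold change 1.96 ± 0.22, adjusted p = 7.8e-05). Dendritic cell markers gave 1 higher and 1 lower of 4, with Itgax higher and Irf8 lower, and Itgax lost the call without L3 (adjusted p = 0.088). The part of any contaminating cells in these results was not tested.

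By chromosome, the median log2 fold change of tested genes was 0.13 on chromosome 15 (462 genes) and -0.01 on chromosome 2 (947 genes), against -0.10 (chromosome 12) to 0.04 (chromosome 18) on the 17 other autosomes and the X chromosome. On chromosome 15, 45 genes were called higher and 19 lower. In the p21-/- background the transgene's median on chromosome 15 was 0.09 and on chromosome 12 -0.16. The libraries of that background lie outside the first contrast but were part of the same fit. Each value is a description without a test, and copy number was not measured in these libraries.

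The same transgene was also measured in mice without p21, in 2 Lmo2Tg;p21-/- and 2 p21-/- libraries that share no sample with the contrast above. All these libraries were fitted together, so both contrasts share the filter, the scaling and the estimate of the spread. In the p21-/- background, 1230 genes were called, 10.4% of those tested, 728 higher (6.15%) and 502 lower (4.24%). Of the 863 genes called higher with p21 intact, 734 (85.1%) were also higher without p21 and 504 (58.4%) were called higher. Of the 557 called lower, 541 (97.1%) were also lower and 374 (67.1%) were called lower. Of the progenitor list, 11 of the 12 higher and all 3 lower members were called the same way. The activation lists did not carry over in this way. Of their higher members, 0 of 4 Nr4a and Egr and 0 of 4 AP-1 genes were called higher without p21. It was 0 of 6 for Dusp and Sprouty genes, 1 of 6 for NF-kB genes and 0 of 2 for E-protein and Id genes. Hhex had 2.29 and 3.23 CPM in p21-/- and 86.9 and 77.6 CPM in Lmo2Tg;p21-/- (log2 fold change 4.90 ± 0.21), and Lyl1 had 2.64 and 3.61 CPM in p21-/- and 86.7 and 71.97 CPM in Lmo2Tg;p21-/- (4.67 ± 0.29). Rag1, Rag2, Ptcra, Notch3, Cd3g and Ccr9 were called lower there as well, with log2 fold changes from -3.15 for Ccr9 to -1.11 for Rag1.

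The difference between the 2 transgene effects was tested directly. It was called for 95 genes, 0.802% of those tested, with the log2 effect of the transgene lower without p21 for 86 and higher for 9. Of the 863 genes called higher with p21 intact, 66 were among them, and of the 557 called lower, 4, which were Clec11a, Ccr7, Zfp229 and Lyz2, named after their values were seen. Nr4a1 had 19.3 and 64.8 CPM in p21-/- and 27.1 and 32.1 CPM in Lmo2Tg;p21-/-, and the difference of the effects was -4.23 ± 0.55 on the log2 scale (adjusted p = 0.018). Dusp5 had 33.005 and 113 CPM in p21-/- and 57.1 and 51.8 CPM in Lmo2Tg;p21-/- (difference -3.38 ± 0.57, adjusted p = 0.03), and Tnfaip3 had 117 and 411 CPM in p21-/- and 116 and 109 CPM in Lmo2Tg;p21-/- (difference -3.46 ± 0.68, adjusted p = 0.037). p21-/- library 2 was above p21-/- library 1 for each of these genes. The count of differing genes rests on few libraries and was 0 without WT library 1, 0 without WT library 3, 0 without Lmo2Tg;p21-/- library 1 and 1 without Lmo2Tg;p21-/- library 2.

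**Figure D5:**
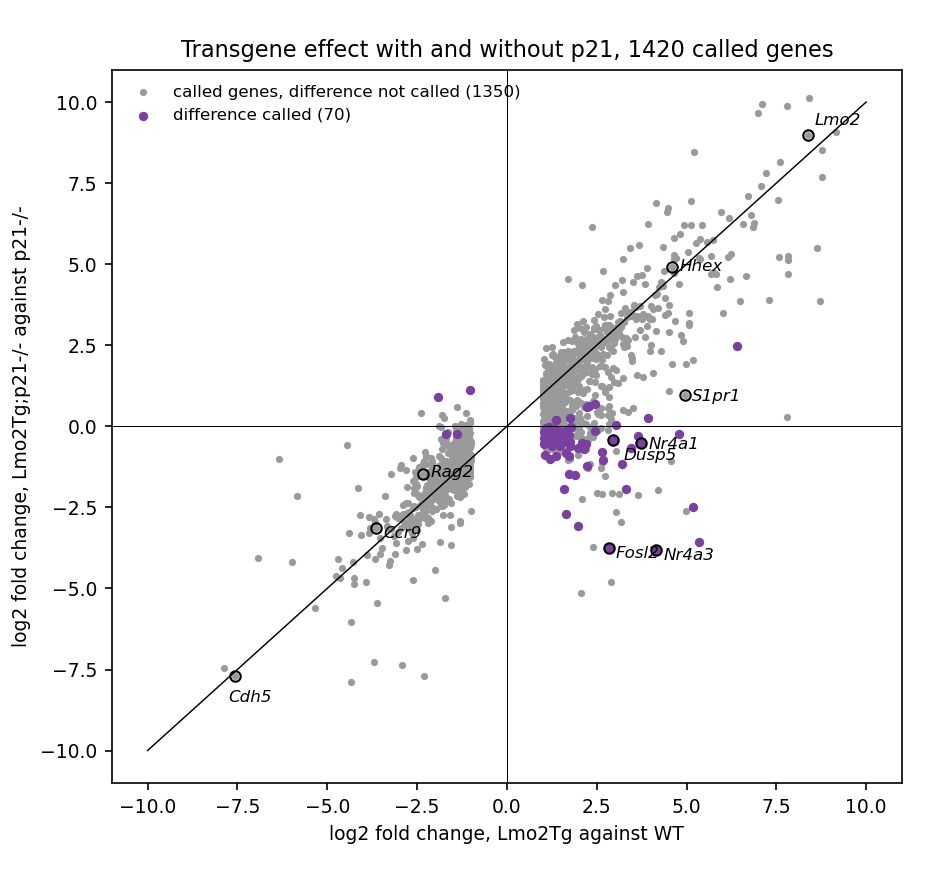
Log2 fold change of the 1420 genes called in Lmo2Tg against WT (horizontal) beside the log2 fold change of the same genes in Lmo2Tg;p21-/- against p21-/- (vertical); the diagonal marks equality and purple points are the 70 genes whose difference was called. Lmo2, Hhex, Ccr9 and Cdh5 lie near the diagonal, and Nr4a1, Nr4a3, Dusp5 and Fosl2 lie to the right and below 0.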

How the data were processed

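RNA was sequenced from total DN3 thymocytes, and the deposited tables hold read counts per gene. According to the methods and the submitters' processing notes, the authors aligned reads with STAR 2.4.2a to mm10 and counted them with featureCounts, and the deposited counts are not normalised. The strand setting, read length and adapter treatment of the counting are not stated in the sources used here. The counts used are labelled No and those of the other experiment Reverse, which may name the strand setting.

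Of the table of protein-coding genes (22114), 9 columns were used and 1 column of no listed sample was not. Columns were assigned to samples by their headings. The headings L2 and L3 also occur as descriptions of samples of another experiment in the series, and they were taken as the Lmo2Tg libraries because they stand in this table. The log2 CPM values of L2 and L3 correlated at 0.997 with each other and at 0.974 to 0.980 with the libraries of the other experiment, across genes, which are not independent replicates. The counts of the other experiment may also differ in strand setting.

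Counts were filtered with filterByExpr (minimum count 10, minimum total 15) and scaled with TMM. All 9 libraries were fitted in 1 quasi-likelihood model in edgeR 4.0.16 (R 4.3.3), with no covariate, and adjusted p-values are Benjamini-Hochberg values over the 11840 genes tested. Contrasts were Lmo2Tg against WT, Lmo2Tg;p21-/- against p21-/- and their difference. CPM in the text are TMM-scaled. On simulated data for Lmo2Tg against WT with 11840 genes, 98 of 100 genes changed by 2 and 77 of 100 changed by 1.2 on the log2 scale were called, with 5 false calls. Intervals of count ratios are exact at 95%, and the floor of a fold against 0 is 3 counts over the group.

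Gene lists, members and rules were chosen with earlier results of these data known. Named genes were in each direction the 12 called genes that changed most in fold, with a mean of at least 1 CPM and no overlap, and the 10 that changed most in CPM, then Lmo2, Cdkn1a and the genes the study names as LMO2 targets, and up to 6 called members of each list, or the 2 most abundant where none was called. A few more are marked where they appear. Of 181 such genes, 51 overlap another annotated gene and 44 of these a gene on the other strand, where reads cannot be told apart. Alternatives were DESeq2 1.42.0, limma-voom (limma 3.58.1), RLE factors, other filters and thresholds, a block by the digit of the headings and leaving out each library, and bounds and count ratios without 1 library were added after the data were seen. Promoters come from RefSeq (GRCm38.p6), and gene positions and overlaps from GENCODE M21, which matched 98.57% of the genes.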

Additional observations from a re-analysis of the deposited data

Results flagged for a closer look

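The transgene effect was compared between mice with and without p21 by the interaction term of the edgeR fit, and it differed for 95 genes. Values below are the effect without p21 minus the effect with p21, on the log2 scale, with the approximate standard error derived from the F statistic. Each is listed because that term had an adjusted p under 0.05 and a difference above 2-fold.

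Among named genes the difference was negative for 17 members. It was -7.98 ± 1.46 for Nr4a3, -4.23 ± 0.55 for Nr4a1 and -4.13 ± 0.76 for Nr4a2. Among AP-1 factors it was -4.38 ± 0.79 for Maff and -6.60 ± 1.21 for Fosl2. Among feedback inhibitors it was -3.38 ± 0.57 for Dusp5, -1.76 ± 0.32 for Dusp2, -2.21 ± 0.27 for Spry1, -3.70 ± 0.69 for Nfkbia and -3.46 ± 0.68 for Tnfaip3. It was also -1.63 ± 0.30 for Stk17b, -2.75 ± 0.53 for Tob1, -2.85 ± 0.58 for Plk3, -2.30 ± 0.39 for Id2, -1.43 ± 0.29 for Irf1 and -1.60 ± 0.26 for Hspa5. For Cdkn1a, the gene inactivated in the p21-/- mice, it was -1.56 ± 0.27, from 14.3 and 17.7 CPM in p21-/- and 4.35 and 3.50 CPM in Lmo2Tg;p21-/-.

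The difference was positive for 2 named genes, 2.14 ± 0.39 for Ccr7 and 1.16 ± 0.23 for Lyz2.

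Beside these values, WT library 3 was the lowest WT library for 57 of the 66 called-higher genes whose effect differed, at a median of 73.6% of the mean of WT libraries 1 and 2, against 40.8% of all genes tested and a median of 100.3%. In p21-/- mice, library 2 held 64.8 CPM of Nr4a1 and 54.6 CPM of Nr4a3 against 19.3 and 2.93 CPM in library 1. The part of these libraries in the difference was not tested beyond leaving each out, which gave 0 differing genes without WT replicate 1, WT replicate 3 or Lmo2Tg;p21-/- replicate 1.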

How the results depend on the processing

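The count of called genes stayed within 1.5 times of 1420 under RLE factors (1425), DESeq2 (1289), limma-voom (1400), no filter on low counts (1531), an adjusted p of 0.01 (1153) and a fit of the 5 libraries alone (1377). With at least 10 CPM on average it was 496 (334 higher, 162 lower), with 4 genes gained and 0 lost and 469 called in the p21-/- background, since fewer genes were tested. With no fold threshold it was 4329 (2327 higher, 2002 lower), and 3639 in the p21-/- background. Leaving out 1 library, it ran from 1260 without L2 to 1469, genes gained from 87 to 133 (without L3) and genes lost from 33 to 55 (without L2).

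The difference between p21 states, 95 genes, was 161 with DESeq2, 224 with no filter, 163 with no fold threshold and 0 at an adjusted p of 0.01 (edgeR). It ran from 0 (without WT replicate 1, WT replicate 3 or Lmo2Tg;p21-/- replicate 1) to 259 (without p21-/- replicate 1), and the cause was not tested.

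Whether the digits in the headings pair the libraries could not be decided. Deviations of same-numbered libraries correlated at -0.24 to 0.30, but differently numbered libraries were not compared, so these values have no reference. The fit with the replicate block called 1419 genes (878 higher, 541 lower), with 1250 in the p21-/- background and 75 for the difference.

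Of 3187 values of 181 named genes, 97 lost and 13 gained a call, and 6 changed sign, all of genes that were not called. Pcna was at -0.019 with the block. Leaving out 1 library, Pcna ran from -0.057 to 0.17, Atp5a1 from -0.13 to 0.034, Atp5b from -0.21 to 0.015 and Slc38a1 from -0.14 to 0.073. Of 162 called named genes, 126 kept the call without any 1 library of the comparison. Counts of 1 to 3 limit the genes at 0 in WT to the bounds given.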
